A study of Homo sapiens with 6 samples.

Results

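Keratins are the intermediate filament proteins of epithelial cells, and 9 keratin genes that mark lung and other epithelia were followed in A549 cells, a human lung adenocarcinoma line, after knockdown of the chromatin-associated protein BAP18. The 9 genes are KRT7, KRT8, KRT18, KRT19, KRT15, KRT17, KRT80, KRT81 and KRT86. They were taken by symbol from the 35474 genes of the deposited count table. All 9 had enough counts to be tested, among 20776 genes tested in all. The study transfected 3 A549 cultures with siRNA against BAP18 (siBAP18) and 3 with a nonspecific siRNA (siCtrl), and sequenced poly(A)-selected RNA taken 48 h later. All 6 cultures are of 1 cell line, and the sources used here do not state which BAP18 siRNA was given.

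A keratin filament is built from pairs of a type I and a type II protein. KRT8 (type II) pairs with KRT18 (type I) in simple epithelia, where KRT7 and KRT19 are further partners. KRT15 and KRT17 are type I keratins known from basal and stressed epithelium, KRT80 is a type II keratin found near desmosomal junctions, and KRT81 and KRT86 are type II hair keratins that some carcinomas also express. The filaments are tied to cell junctions by desmosomal proteins and to the basement membrane by hemidesmosomal proteins.

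The 6 libraries held between 42094524 and 56548620 counts on genes. Levels are given as CPM, the count of a gene relative to the library total scaled by edgeR's TMM method, with the SD over 3 libraries. The quasi-likelihood test of edgeR compared the groups, and its p-values were adjusted over all 20776 genes by the method of Benjamini and Hochberg. BAP18 itself, listed as C17orf49, was at 15.1 CPM in siCtrl and 2.41 CPM in siBAP18, a log2 fold change of −2.65 (edgeR adjusted p = 7.31e-16). The 9 keratins took between 2.60% and 2.78% of all counts in siCtrl and between 2.21% and 2.58% in siBAP18. Among markers of other cell types, 2 of 5 listed fibroblast markers, 1 of 3 leukocyte markers and 2 of 4 endothelial markers had enough counts to be tested. The summed level of the fibroblast markers was 12.3 to 13.3 CPM in siCtrl and 9.25 to 10.6 CPM in siBAP18, nearly all of it COL1A1. The leukocyte markers summed to 1.16 to 1.66 CPM in siCtrl and 0.956 to 1.26 CPM in siBAP18, and the endothelial markers to 0.984 to 1.15 CPM and 0.890 to 1.13 CPM.

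On knockdown, KRT80 and KRT7 rose, KRT8, KRT18 and KRT15 fell, and KRT19, KRT17, KRT81 and KRT86 did not pass the test. KRT80 had the largest change of the 9, with a 2.49-fold rise. The 5 of 9 keratins at an adjusted p under 0.05 (55.6%) stand beside 49.6% of all genes tested. By direction, 2 of 9 rose, beside 24.5% of all genes, and 3 of 9 fell, beside 25.1%. In 5 of 9 the values of the groups did not overlap, as in 56.6% of all genes. Only KRT80 also passed an absolute log2 fold change of 1, a threshold passed in either direction by 8.46% of genes and upward by 4.72%. The median log2 fold change was −0.01 over the 9 keratins and 0.00 over all genes tested. As a group the keratins were changed about as often as genes in general, and the results below concern single genes and their proportions. In RNA from whole cultures, fewer cells that express a gene and less of its RNA per cell cannot be told apart.

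**Figure D1:**
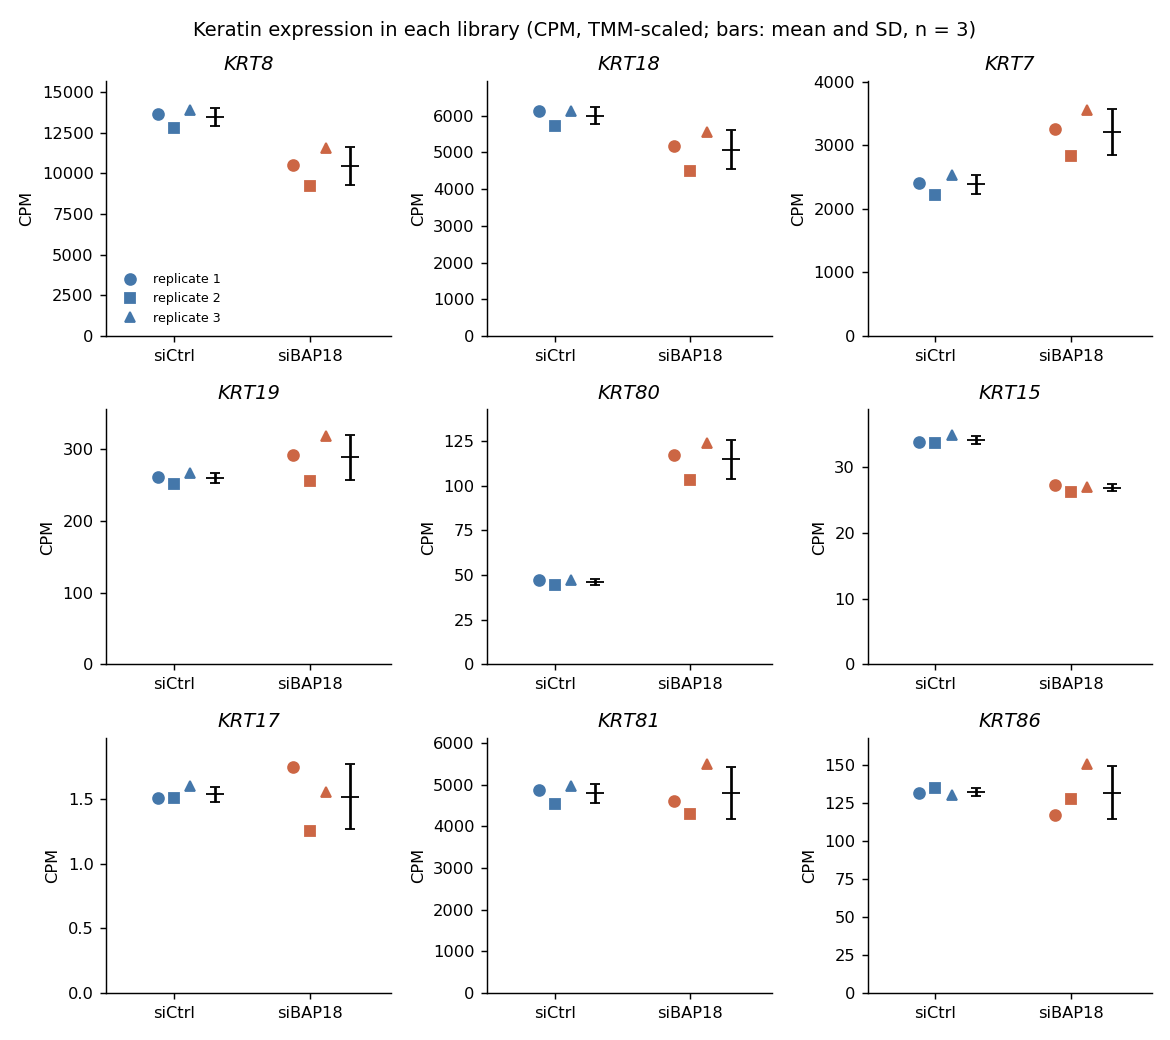
Level of each keratin gene in each of the 6 libraries, in CPM on a linear axis from 0. Points are libraries, with a shape for each replicate number, and bars show the mean and SD (n = 3). The groups are apart for KRT8, KRT18, KRT7, KRT80 and KRT15 and overlap for KRT19, KRT17, KRT81 and KRT86.

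The keratins of simple epithelium moved in different directions. KRT8, the type II partner of KRT18, was counted 724385, 595446 and 649157 times in siCtrl replicates 1, 2 and 3 and 572456, 538643 and 468428 times in siBAP18 replicates 1, 2 and 3. In CPM these are 13620, 12800 and 13890 in siCtrl and 10520, 9223 and 11560 in siBAP18. Every siBAP18 library was below every siCtrl library, and the lowest of all was siBAP18 replicate 2. The mean fell from 13440 ± 565 to 10430 ± 1170 CPM, a log2 fold change of −0.37 ± 0.08 (SE, edgeR adjusted p = 3.36e-04), or 0.776-fold with a 95% interval from 0.695 to 0.867. By mean counts in siCtrl, KRT8 ranked 2 among the 35474 genes listed.

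KRT18, the type I partner of KRT8, ranked 9. Its level was 6117, 5730 and 6142 CPM in siCtrl and 5176, 4494 and 5555 CPM in siBAP18. The groups did not overlap, with siBAP18 replicate 3 closest to siCtrl. The log2 fold change was −0.24 ± 0.08 (SE, edgeR adjusted p = 0.0102), and its 95% interval ran from −0.40 to −0.08. The call did not hold when either of 2 control libraries was left out. Leaving out siCtrl replicate 1 gave an edgeR adjusted p of 0.0523, and leaving out siCtrl replicate 3 gave 0.0584, both with a log2 fold change of −0.23.

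KRT7, a type II keratin of ductal and lung epithelium, went the other way. It was at 2404, 2220 and 2529 CPM in siCtrl and at 3260, 2826 and 3554 CPM in siBAP18. All siBAP18 libraries were above all siCtrl libraries. The log2 fold change was 0.43 ± 0.08 (SE, edgeR adjusted p = 5.95e-05), a 1.35-fold rise with a 95% interval from 1.20 to 1.51.

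KRT19, a type I keratin without the usual tail domain, was at 260.6, 250.9 and 265.5 CPM in siCtrl and at 291.4, 255.4 and 316.9 CPM in siBAP18. Replicates 1 and 3 of siBAP18 were above all siCtrl libraries, while siBAP18 replicate 2 lay within them. The log2 fold change was 0.15 ± 0.07 (SE, edgeR adjusted p = 0.0894). Without siBAP18 replicate 2 it was 0.23 (edgeR adjusted p = 0.00199), past the threshold.

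KRT80 showed the clearest separation. Its counts were 2497, 2057 and 2204 in siCtrl and 6381, 6011 and 5026 in siBAP18. In CPM it was at 46.95, 44.23 and 47.15 in siCtrl and at 117.3, 102.9 and 124.0 in siBAP18. The lowest siBAP18 value lay far above the highest siCtrl value. The mean went from 46.1 ± 1.63 to 114.7 ± 10.8 CPM, a log2 fold change of 1.31 ± 0.07 (SE, edgeR adjusted p = 2.18e-13) with a 95% interval from 1.16 to 1.47.

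KRT15, a keratin of basal cells, was low and fell with little spread. It was at 33.8, 33.8 and 34.9 CPM in siCtrl and at 27.4, 26.3 and 27.1 CPM in siBAP18. The groups did not overlap. The log2 fold change was −0.34 ± 0.07 (SE, edgeR adjusted p = 1.84e-04).

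KRT17, known from basal cells and wounded epithelium, was the least counted of the 9. It had 80, 70 and 75 counts in siCtrl and 95, 73 and 63 counts in siBAP18, which overlap. The log2 fold change was −0.02 ± 0.20 (SE, edgeR adjusted p = 0.933). Its 95% interval from −0.43 to 0.39 is the widest of the 9, and it includes a fall as large as that of KRT8.

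The hair keratins had overlapping groups, and of them KRT81 was high in A549 cells. KRT81 was at 4875, 4542 and 4969 CPM in siCtrl and at 4609, 4307 and 5501 CPM in siBAP18. The siBAP18 libraries spanned more than the siCtrl libraries on both sides. The log2 fold change was 0.00 ± 0.08 (SE, edgeR adjusted p = 0.978), with a 95% interval from −0.16 to 0.17, and KRT81 ranked 15 by counts in siCtrl. KRT86 was at 131.3, 134.9 and 129.9 CPM in siCtrl and at 116.9, 127.5 and 150.5 CPM in siBAP18. Its siBAP18 values lay below, near and above those of siCtrl, and the log2 fold change was −0.01 ± 0.08 (SE, edgeR adjusted p = 0.960, 95% interval −0.16 to 0.15).

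**Figure D2:**
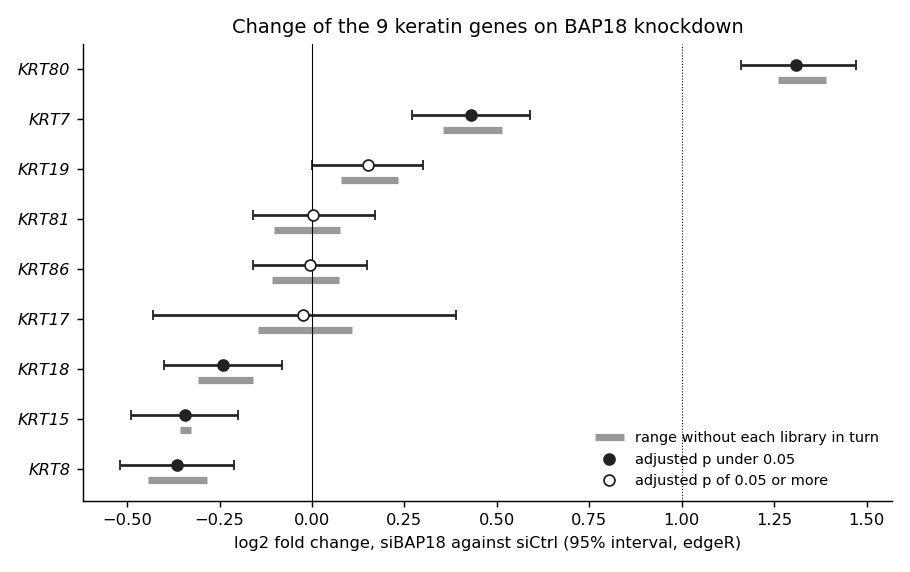
Log2 fold change of the 9 keratin genes, siBAP18 against siCtrl, with 95% intervals from edgeR, and below each a grey bar for the range of the estimate when each library in turn is left out. Filled points have an adjusted p under 0.05, and the dotted line marks a log2 fold change of 1, passed by KRT80 at 1.31.

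The keratins varied more among siBAP18 than among siCtrl libraries. The coefficient of variation of CPM was 1.81% to 6.51% over the 9 genes in siCtrl and 2.04% to 16.5% in siBAP18. In siBAP18, replicate 3 was highest and replicate 2 lowest for KRT7, KRT8, KRT18, KRT19, KRT80 and KRT81. These were also the libraries with the fewest counts (42094524, replicate 3) and the most (56548620, replicate 2), and with the lowest and highest TMM factors (0.964 and 1.03). The order of highest and lowest was the same in siCtrl for these genes, where replicate 2 had the fewest counts of its group (46035635). The part of depth or scaling in this spread was not tested.

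Ratios within a library do not depend on its scaling. For each count of KRT8 there were 0.176, 0.173 and 0.182 counts of KRT7 in siCtrl and 0.310, 0.306 and 0.308 in siBAP18. The ratio of KRT7 to KRT8 was 1.74 times as high after knockdown, with a coefficient of variation of 0.58% over the siBAP18 libraries, where the CPM of KRT7 itself varied by 11.4%. The ratio of KRT8 to KRT18, which form 1 filament pair, was 2.23, 2.23 and 2.26 in siCtrl and 2.03, 2.05 and 2.08 in siBAP18. This pair thus changed its proportion by a ratio of 0.917, with no overlap between groups.

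The other ratios plotted went with the log2 fold changes of the genes in them. KRT19 per count of KRT18 went from 0.0432 ± 0.00059 to 0.0567 ± 0.00039, without overlap, although the CPM of KRT19 did overlap. KRT80 per count of KRT7 went from 0.0194 ± 0.00065 to 0.0358 ± 0.00079, so that KRT80 rose beyond KRT7. KRT81 per count of KRT8 was 0.358, 0.355 and 0.358 in siCtrl and 0.438, 0.467 and 0.476 in siBAP18, again without overlap. Here KRT8 fell, while KRT81 itself had a log2 fold change of 0.00. Only KRT81 per count of KRT86 overlapped among the ratios plotted, at 36.4 ± 2.4 and 36.6 ± 2.8. These ratios were chosen with the values known and carry no test. With 3 libraries against 3, an exact permutation test could not give a p under 0.05 in any case.

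**Figure D3:**
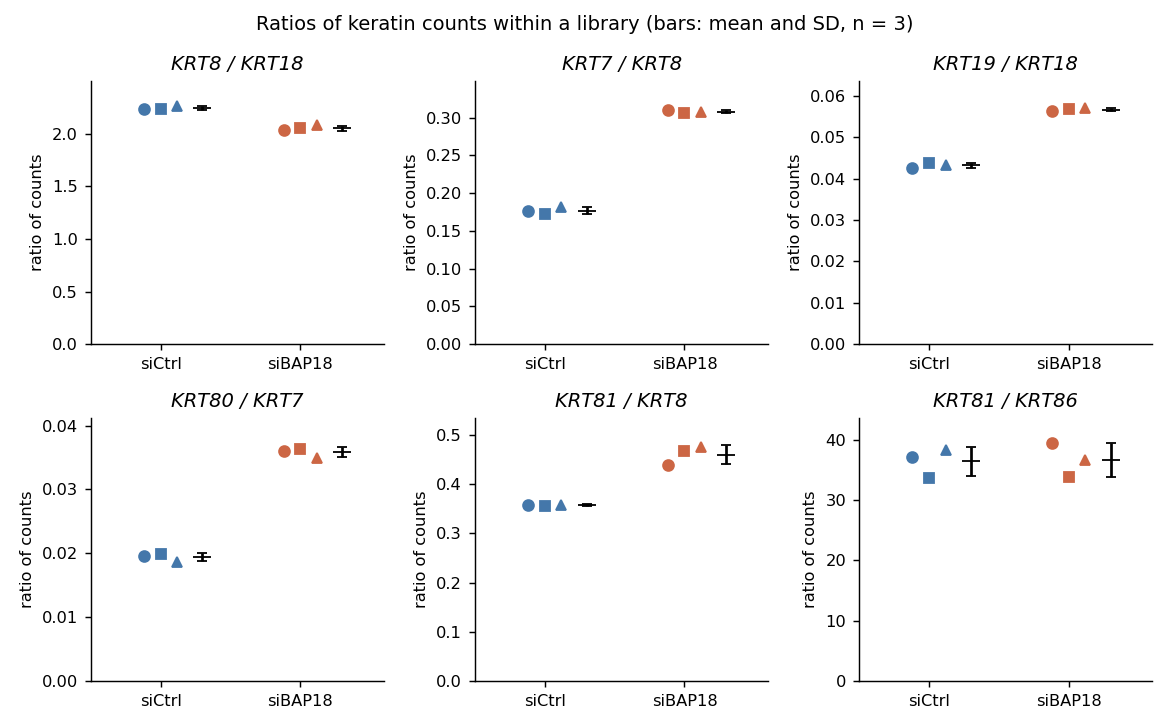
Counts of one keratin for each count of another within the same library, for 6 pairs, on linear axes from 0. Points are libraries, with shapes for replicates 1 (circle), 2 (square) and 3 (triangle), and bars show the mean and SD (n = 3). The groups are apart in all pairs plotted except KRT81 to KRT86.

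As shares of the counts of all 9 keratins, KRT8 went from 49.6% ± 0.081 in siCtrl to 43.3% ± 0.26 in siBAP18 (SD, n = 3). KRT7 went from 8.80% ± 0.21 to 13.3% ± 0.16. The share of KRT81 was 17.7% ± 0.062 and 19.9% ± 0.74, and that of KRT18 was 22.1% ± 0.18 and 21.1% ± 0.36. None of these 4 shares overlapped between the groups, while those of KRT15, KRT17 and KRT86 did. KRT8 kept the largest share of counts in every library. The shares depend on each other: that of KRT81 rose although its own log2 fold change was 0.00.

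Levels can be compared between genes only per length, and the length used decides the order. By the deposited RPKM (counts per kilobase of listed gene length relative to the library total), KRT81 was highest in siCtrl with 2480 ± 91.5. KRT8 followed with 1948 ± 62.8 and KRT18 with 1859 ± 52.4 RPKM, and these overlapped: KRT8 had 1880 in siCtrl replicate 2 and KRT18 had 1894 in siCtrl replicate 3. The next were KRT7 with 581 ± 32.6, KRT19 with 110.6 ± 2.15, KRT86 with 55.0 ± 1.67 and KRT80 with 10.6 ± 0.265 RPKM. KRT15 had 4.79 ± 0.076 and KRT17 had 0.605 ± 0.0206 RPKM. From KRT7 down to KRT17 no neighbours in this order overlapped. In siBAP18 the order of means was the same except that KRT18 (1575 ± 117 RPKM) stood above KRT8 (1514 ± 119 RPKM), with overlapping values.

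The listed length of KRT8, 6881 bases, is the union of its annotated exons and is 3.66 times the 1882 bases of its main transcript in GENCODE 29, while for KRT81 both are 1929 bases. Per kilobase of the main transcript, KRT8 was first in siCtrl with 7123 ± 229 on the RPKM scale, followed by KRT18 with 3830 ± 108, KRT81 with 2480 ± 91.6 and KRT7 with 1356 ± 76.0. The type I keratins summed to 1975 ± 54.4 RPKM in siCtrl and 1703 ± 126 in siBAP18, and the type II keratins to 5075 ± 185 and 4866 ± 404 RPKM. The type I sums did not overlap between groups and the type II sums did.

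On the genome (GRCh38, positions of the deposited table), the 5 type II genes and KRT18 lie within 0.784 Mb of chromosome 12, and the other 3 type I genes within 0.111 Mb of chromosome 17. The genes that rose are neighbours at the lowest coordinates: KRT80 lies at chr12:52168996-52192000 on the − strand and KRT7 at chr12:52232520-52252186 on the + strand, 40.5 kb apart. KRT86 (chr12:52249300-52309163, +) and KRT81 (chr12:52285913-52291534, −) come next, and KRT81 lies between exons of KRT86 and shares none with it. KRT8 (chr12:52897187-52949954, −) and KRT18 (chr12:52948871-52952901, +), which fell, lie 606 kb further on. On chromosome 17, all on the − strand, KRT15 (chr17:41513743-41522529) and KRT19 (chr17:41523617-41528308) are 1.09 kb apart, and KRT17 (chr17:41619437-41624842) is 91.1 kb away. KRT15 fell while its close neighbour KRT19 did not pass the test.

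Some of these genes share bases or near-identical sequence with others, which limits how reads can be told apart. The coding sequences of KRT81 and KRT86 are 90.1% identical in GENCODE 29, with an unbroken identical run of 605 bases. KRT81 had 33.7 to 39.4 counts for each count of KRT86 in the 6 libraries. Of all stretches of 150 bases in annotated transcripts, 25.1% of those of KRT81 and 20.3% of those of KRT86 occur unchanged in the other gene, while none of the other 7 keratins shares such a stretch with a transcript of another gene, read in the sense of each transcript. How the authors assigned reads that fit both genes is not given in the sources used here, so the level of KRT86 is uncertain. KRT86 and KRT83, another close relative, together added between 3.43% and 4.01% to the counts of KRT81, too little for their sum with KRT81 to differ much from KRT81 alone.

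KRT7 shares 282 exon bases, 6.89% of its listed length, with the antisense gene RP3-416H24.1 on the opposite strand. RP3-416H24.1 moved with KRT7: its log2 fold change was 0.44 (edgeR adjusted p = 4.34e-05), from 887 ± 58.9 to 1210 ± 142 CPM. For each count of KRT7 it had 0.368, 0.373 and 0.374 counts in siCtrl and 0.377, 0.373 and 0.376 in siBAP18, which overlap. KRT8 and KRT18 lie on opposite strands and share 525 exon bases, 7.63% of KRT8 and 16.3% of KRT18. The libraries were made with strand marking, but whether the counting used strand is not given in the sources used here, and without it reads in the shared bases cannot be told apart.

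KRT8 and KRT18 have many processed pseudogenes, copies of their mRNA elsewhere in the genome. Of the 48 rows named as KRT8 pseudogenes, 32 were tested, of which 12 fell, 1 rose and 19 did not pass. Of these 32, 40.6% passed, while of all genes tested 49.6% passed and 25.1% fell. Their median log2 fold change was −0.34, beside −0.37 for KRT8. The most counted, KRT8P3 and KRT8P45, had log2 fold changes of −0.33 and −0.34 (edgeR adjusted p = 7.90e-04 and 9.13e-04). KRT8P3 had 0.0175 ± 0.00063 counts for each count of KRT8 in siCtrl and 0.0178 ± 0.0013 in siBAP18, which overlap. KRT8P12 was the exception: it had 610, 504 and 561 counts in siCtrl and 1062, 1095 and 747 in siBAP18, a log2 fold change of 0.73 (edgeR adjusted p = 4.54e-08). Of 63 KRT18 pseudogenes, 26 were tested, and 1 of them passed, 3.85% beside 49.6% of all genes. This was KRT18P5, which fell from 18, 12 and 20 counts to 6, 4 and 2. It met the count filter only through the siCtrl libraries, so its call follows in part from the filter. All pseudogene rows together added between 3.41% and 4.04% to the counts of KRT8 and between 0.513% and 0.648% to those of KRT18, too little to move either log2 fold change much.

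Of 38 other keratin genes listed, 15 were tested, and 2 rose, 2 fell and 11 did not pass. Thus 26.7% passed, beside 49.6% of all genes tested. KRT4, a type II keratin of stratified mucosal epithelium, fell from 19.3 ± 1.48 to 5.68 ± 0.375 CPM, a log2 fold change of −1.77 (edgeR adjusted p = 7.45e-14). KRT222, a short keratin-related gene, had 162, 120 and 140 counts in siCtrl and 44, 58 and 28 in siBAP18, and also had a log2 fold change of −1.77 (edgeR adjusted p = 3.26e-08). KRT16, a keratin of stressed and hyperproliferating epidermis, had 40, 33 and 43 counts in siCtrl and 99, 82 and 96 in siBAP18, a log2 fold change of 1.21 (edgeR adjusted p = 1.29e-04). KRT10, a type I keratin of differentiating epidermis, rose by a log2 fold change of 0.30 (edgeR adjusted p = 0.00275). KRT83, a hair keratin close to KRT81, had a log2 fold change of −0.11 (edgeR adjusted p = 0.253). The median over the 15 genes was 0.09.

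**Figure D4:**
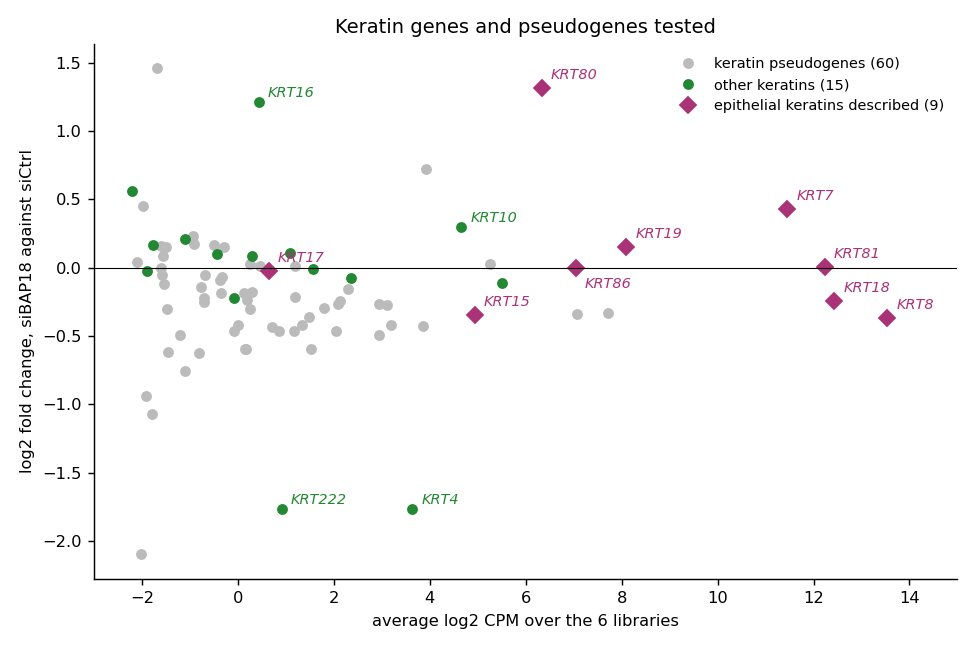
Log2 fold change (siBAP18 against siCtrl) against average log2 CPM over the 6 libraries for the 9 keratins described (diamonds), the 15 other keratins tested (green, named where the adjusted p was under 0.05) and the 60 keratin pseudogenes tested (grey). KRT80 and KRT16 lie above 1, and KRT4 and KRT222 lie near −1.77.

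The lists of related genes that follow were, like the keratins, chosen with earlier results of these data known. Their counts stand beside 24.5% of all genes tested that rose and 25.1% that fell, 49.6% in all. Among other intermediate filament genes, 5 of 9 rose and none fell (median log2 fold change 0.47), so that 55.6% passed, near the 49.6% of all genes. Vimentin (VIM), the filament protein of mesenchymal cells, rose by a log2 fold change of 0.43, and the neuronal filament genes NEFL, INA and NEFM by 0.65, 0.47 and 1.25. NEFM was low, with 12, 14 and 8 counts in siCtrl and 24, 30 and 30 in siBAP18. Its siCtrl libraries alone did not meet the count filter, so its place among the genes that rose follows in part from the filter. NEFH, another neuronal filament gene, had −0.60 (edgeR adjusted p = 0.186). Synemin (SYNM) had 0.14 (edgeR adjusted p = 0.126).

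The genes that anchor keratin to desmosomes moved in both directions. Of 12 tested, 5 fell, 4 rose and 3 did not pass (median −0.09). The cadherin DSG2 (log2 fold change −0.78), plakoglobin (JUP, −0.85), PKP4 (−0.999) and desmoplakin (DSP, −0.42), which links keratin to the desmosome, fell. The plakins of the cornified envelope, periplakin (PPL, 0.63) and envoplakin (EVPL, 0.30), and the desmosomal membrane protein PERP (0.81) rose. Of 9 hemidesmosome genes, 3 rose, 3 fell and 3 did not pass (median −0.02). Plectin (PLEC), which ties keratin to the hemidesmosome, rose by a log2 fold change of 0.71 and integrin ITGA6 fell by 0.64, while its partner ITGB4 had −0.02 (edgeR adjusted p = 0.836). Among the laminin genes of the list, LAMB3 (0.39) rose and LAMA3 (−0.34) fell.

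Of 11 genes whose products bind or modify keratin, 2 rose, 3 fell and 6 did not pass (median 0.04). Transglutaminase 2 (TGM2), a crosslinking enzyme, fell by 1.06 on the log2 scale, and 14-3-3 sigma (SFN), a partner of phosphorylated keratins, by 0.35. FAM83H, which recruits casein kinase to keratin filaments, fell by 0.26, while the kinase gene CSNK1A1 rose by a log2 fold change of 0.29. The largest rise of the list was that of AKAP8L, which encodes a nuclear anchoring protein, with a log2 fold change of 0.70 and 90.2 ± 1.84 CPM in siCtrl beside 147 ± 7.25 CPM in siBAP18. Of 18 transcription factor genes of epithelial cells, 8 rose, 8 fell and 2 did not pass (median 0.16). KLF5 fell by 1.05 and SP1 by 0.32 on the log2 scale. The AP-1 genes FOSL1 (3.70), JUN (3.39), JUND (0.89) and FOSL2 (0.68) and the factor CEBPB (0.73) rose, and ELF3 had −0.07 (edgeR adjusted p = 0.415).

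Of 13 squamous and cornified envelope genes listed, 8 had enough counts to be tested, and 6 rose, 1 fell and 1 did not pass (median 0.84). Of those tested, 87.5% passed beside 49.6% of all genes, and all 8 had a mean of at most 5.07 CPM in either group. IVL met the count filter only through the siBAP18 libraries, so its place among the genes that rose follows in part from the filter. Involucrin (IVL), a scaffold of the cornified envelope, had 2, 0 and 0 counts in siCtrl and 112, 110 and 58 in siBAP18. S100A2 rose by a log2 fold change of 2.46 and SBSN by 1.38, and CNFN fell by 0.73 (edgeR adjusted p = 1.22e-04). Of 13 other epithelial genes tested, 6 fell, none rose and 7 did not pass (median −0.27). They include E-cadherin (CDH1, −1.32), the tight junction genes TJP1 (−0.58) and OCLN (−0.36) and the adhesion molecule EPCAM (−0.41), while the protease inhibitor SPINT2 had −0.03 (edgeR adjusted p = 0.774).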

How the data were processed

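The authors deposited whole-number counts per gene, without normalization, and RPKM computed from the same counts, with exon positions and listed gene lengths. The aligner, the counting program and its use of strand are not given in the sources used here. The submitters' processing notes name the builds hg38 and GRCm38 (mouse). The table's positions match GENCODE 29 on GRCh38 for all 9 keratins except the start of KRT17, which differs by a few bases.

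The analysis used edgeR 4.0.16 in R 4.3.3 (filterByExpr, TMM, the quasi-likelihood test adjusted by Benjamini-Hochberg, group as the only term). Dividing the log2 fold change by the root of the F statistic gave the SE. Thresholds were an adjusted p under 0.05 and, for calls with a fold, an absolute log2 fold change over 1. Library totals were 42094524 to 56548620 counts, and 0 counts would allow up to 3 counts. This floor covers counting error only. The intervals given for fold changes are not intervals of counts and come from the edgeR fit to the replicate libraries. Alternatives used DESeq2 1.42.0, limma 3.58.1 on log2 RPKM with a pseudocount of 1 or 0.1 (genes of mean RPKM 0.5 or more), other scalings and filters, a replicate block, each library left out, and sums with related keratins or pseudogenes. No pair of replicates agreed within sampling noise (chi-square per degree of freedom of 4.17 or more). The steps were tested on simulated data.

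Transcript lengths and sequence identities were computed from GENCODE 29 with Python 3.11.15, Biopython 1.88 and pandas 2.3.3, and matplotlib 3.10.9 drew the plots. The 9 keratins and all gene lists were chosen with earlier results of these data known. From each list, the text names up to 4 genes with the smallest adjusted p and those whose average log2 CPM was 5 or more. KRT18P5, NEFH and the wider ratios were singled out after their values were seen. Some items of the lists and sequences are not reported here.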

Additional observations from a re-analysis of the deposited data

How the results depend on the processing

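KRT7, KRT8, KRT15 and KRT80 kept their direction and an adjusted p under 0.05 under every alternative run, with log2 fold changes of 0.35 to 0.51, −0.44 to −0.28, −0.36 to −0.27 and 1.24 to 1.39. KRT81 and KRT86 passed under none, and their estimates lay between −0.10 and 0.08 and between −0.11 and 0.07, so their sign is not fixed. Without each library in turn, KRT18 ranged from −0.31 to −0.16 and KRT19 from 0.08 to 0.23. The sum of KRT17, KRT14 and KRT16 had a log2 fold change of 0.51, but this holds the separate rise of KRT16, and KRT17 shares no stretch of 150 bases with either, so the sum does not bear on KRT17. Over the whole table, 1758 genes were called, but 348 with limma on log2(RPKM + 1) and 909 with log2(RPKM + 0.1), both over 16484 genes instead of 20776. These 2 limma runs differed from each other only in the pseudocount. The cause of the difference from 1758 was not tested, since the test, scaling, filter and pseudocount changed together. Over all genes, replicate numbers showed little pairing of the libraries (r across genes of 0.025, 0.12 and 0.048 for numbers 1, 2 and 3). KRT7, KRT8, KRT18, KRT19, KRT80 and KRT81 nevertheless followed the same replicate order in both groups. A replicate block lowered the SE of KRT8 from 0.0776 to 0.0565 and that of KRT18 from 0.0758 to 0.0567. It raised that of KRT17 from 0.20 to 0.204. With a replicate block, 1741 genes were called and KRT19 passed (log2 fold change 0.15, adjusted p = 0.0359 from edgeR's test), and no other call among the 9 changed. Depth limits KRT17, with fewer than 100 counts in each library.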
